A study of Mus musculus with 6 samples.

Results

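The neuronal cytoskeleton genes described here are 3 stathmins (Stmn2, Stmn3 and Stmn4), 3 neuronal intermediate filament genes (Nefl, Nefm and Ina), the neuronal beta-tubulin Tubb3, and 3 genes of microtubule-associated proteins (Dcx, Map2 and Mapt). They were chosen by name and with earlier results of these data known. Counts among them are therefore a description and no independent test. The array annotation paired 24 of the 45037 probe sets that were not controls with 1 of these 10 symbols and no other, and the 10 genes stand among 18193 genes with such a probe set. RNA came from neuralized embryoid bodies, aggregates of mouse embryonic stem cells cultured in suspension in a differentiation medium. The Ag1.3 cultures received 500 nM all-trans retinoic acid together with 50 nM Ag1.3, an agonist of Smoothened, which is the membrane protein that passes on the hedgehog signal. The RA cultures received 500 nM all-trans retinoic acid alone. Both treatments lasted 3 days and followed 2 days in suspension. Cells of both groups carried a Gli1-FLAG transgene driven by the constitutive Rosa26 promoter, and all cultures came from this 1 line, so neither group has unmodified Gli1 expression. There were 3 arrays per group, 1 per culture, and each Ag1.3 culture was paired with the RA culture of the same number.

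Microtubules and neurofilaments give a neuron its axon and dendrites. Stathmins bind free tubulin and favour the shortening of microtubules, whereas doublecortin, MAP2 and tau bind along microtubules and stabilize them. Neurofilament light and medium chains and alpha-internexin assemble into the intermediate filaments of axons. The genes are switched on as neural progenitors leave the cell cycle and become neurons, and several of them serve as markers of young neurons in the embryonic neural tube, where hedgehog signalling patterns the ventral side.

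Arrays were alike in overall level, with median intensities over all rows of 48.87 to 52.71 on Ag1.3 arrays and 48.79 to 52.01 on RA arrays. Actin 3' to 5' signal ratios, which reflect RNA integrity, were 1.33 to 1.63 on Ag1.3 arrays and 1.46 to 1.51 on RA arrays. Hybridization spikes were brighter in the Ag1.3 group, by 0.19 in log2 units. The probe set signal is mostly that of the 3' end of a transcript, so levels were compared between arrays and not between genes. In whole embryoid bodies, fewer cells of a type and less RNA per cell cannot be told apart.

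Of the 10 genes, 9 rose with Ag1.3 in limma's test, and Map2 was the 1 that did not pass. The test used log2(intensity + 16), took the replicate number as a block, let the brightest probe set on the log2 scale stand for each gene, and adjusted p by Benjamini-Hochberg over 18193 genes with a threshold of 0.05. Over all genes, 1.39% passed, 1.07% as higher. The members' median log2 fold change was 1.34, against -0.01 over all genes, and their range was 0.67 for Map2 to 1.74 for Stmn4. In all 10 genes every Ag1.3 array read above every RA array, which held for 6.45% of all genes. The median change of the members was 1.45 in pair 1, 1.31 in pair 2 and 1.44 in pair 3. With 2 pairs in the fit fewer genes passed. Without pair 1 these were 4 (Ina, Nefl, Nefm and Stmn2), without pair 2 they were 3 (Nefm, Stmn2 and Stmn4), and without pair 3 they were 5 (Ina, Mapt, Nefl, Nefm and Stmn2). Of all 18193 genes, 39, 35 and 62 passed in these fits. Without the replicate block 6 members passed, among 86 genes in all. With a pseudocount of 1 limma's test called 0 of the 10 and 0 of all genes. Each of the 10 had an unadjusted p below 0.05 there, as had 2412 genes in all. At the pseudocount of 16 all 10 members were likewise below an unadjusted p of 0.05, a level that 14.9% of all genes reached there, 7.24% as higher and 7.68% as lower. Every log2 fold change of the 10 genes was above 0 under each of the 11 alternative settings.

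**Figure D1:**
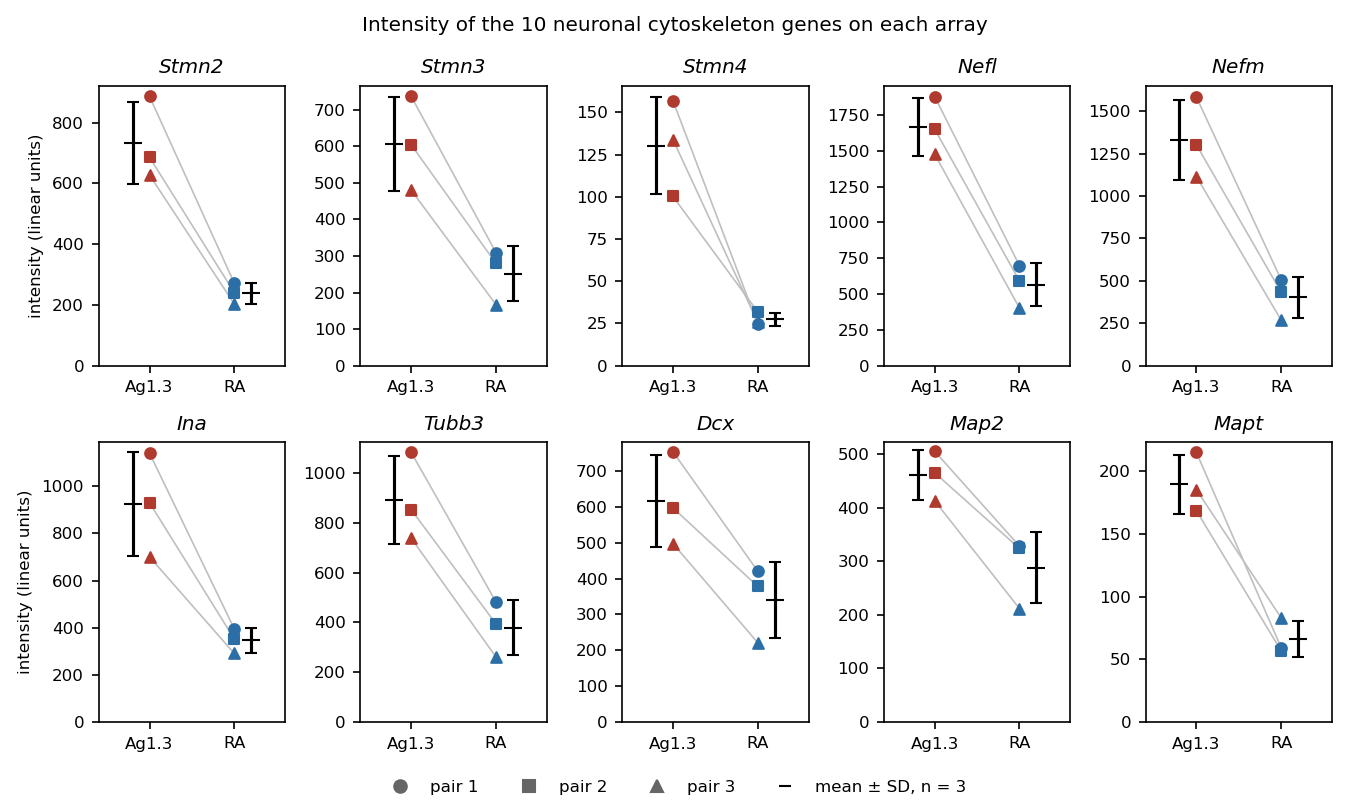
Deposited intensity (linear units, vertical axis) of the probe set that stands for each of the 10 genes on the 3 Ag1.3 and the 3 RA arrays, with lines joining the arrays of a pair and black bars for mean ± SD (n = 3). In all 10 panels the Ag1.3 points lie above the RA points, Ag1.3 replicate 1 is the highest array, and Map2 has the smallest log2 difference in each of the 3 pairs.

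Among the stathmins, Stmn2, a membrane-bound stathmin of growth cones, read 886, 686 and 628 in Ag1.3 replicates 1 to 3, against 272, 241 and 203 in RA replicates 1 to 3. The groups lay far apart relative to their spread, with means of 733 ± 136 in Ag1.3 and 239 ± 34.4 in RA cultures (SD, n = 3 each). The log2 fold change was 1.55 with SE 0.08 and limma's adjusted p = 0.00363, and its dimmer probe set gave 1.79. Stmn4, another neural stathmin, read 157, 100 and 134 in Ag1.3 cultures, against 24.6, 31.9 and 25.6 in RA cultures. Its log2 fold change of 1.74 (SE 0.16, limma adjusted p = 0.0164) was the highest among the 10 genes, and its pairs also differed most, with log2 differences of 2.09, 1.28 and 1.85. RA values of Stmn4 were only a little above the 4.02 to 20.71 spanned by unspiked control probe sets, so its change depends on the pseudocount. The log2 fold change ran from 1.08 at a pseudocount of 64 to 2.20 at 1. Stmn3, the remaining neuronal stathmin, read 737, 604 and 480 in Ag1.3 and 309, 280 and 167 in RA cultures. All 3 Ag1.3 cultures were higher, by a log2 fold change of 1.24 (SE 0.10, limma adjusted p = 0.0104), and the second probe set gave 1.22.

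All 3 neuronal filament genes rose. Nefl, the light chain, read 1878, 1650 and 1475 in Ag1.3 cultures, against 699, 592 and 403 in RA cultures. Nefm, the medium chain, read 1582, 1301 and 1114 in Ag1.3 cultures, against 506, 433 and 268 in RA cultures. Both genes were lowest in replicate 3 of either group, and even this Ag1.3 array was above every RA array. Log2 fold changes were 1.56 for Nefl (SE 0.11, limma adjusted p = 0.00871) and 1.72 for Nefm (SE 0.11, limma adjusted p = 0.00723), and the second Nefl probe set gave 1.65. The genes lie close to each other on chromosome 14, with 1 gene model, Gm19216, between them in RefSeq. Ina, which encodes alpha-internexin, a filament protein that appears early in developing neurons, read 1141, 930 and 700 in Ag1.3 cultures, against 395, 352 and 291 in RA cultures. Its log2 fold change was 1.36 (SE 0.09, limma adjusted p = 0.00723). The 3 probe sets of Ina gave nearly the same value, 1.36, 1.39 and 1.37.

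Tubb3, the beta-tubulin isotype used as a standard marker of neurons, read 1083, 853 and 738 in Ag1.3 cultures, against 482, 394 and 261 in RA cultures. The groups did not overlap, and the log2 fold change was 1.22 (SE 0.10, limma adjusted p = 0.0112). Tubb3, Stmn3 and Dcx passed in the blocked fit and did not pass without the block. Mapt encodes tau, a protein of axonal microtubules. It read 215, 169 and 185 in Ag1.3 cultures, against 59.3, 56.8 and 83.0 in RA cultures. Unlike in most of the 10 genes, RA replicate 3 was the highest RA array here. The log2 fold change of Mapt was 1.33 (SE 0.13, limma adjusted p = 0.0179).

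The other 2 genes had smaller changes. Dcx, the doublecortin gene of young migrating neurons, read 754, 597 and 497 in Ag1.3 cultures, against 421, 378 and 221 in RA cultures. It rose by a log2 fold change of 0.86 (SE 0.11, limma adjusted p = 0.0368). Map2, whose protein is enriched in dendrites of mature neurons, read 506, 466 and 413 in Ag1.3 cultures, against 329, 324 and 212 in RA cultures. All 3 Ag1.3 values were above all RA values, and the log2 fold change of 0.67 (SE 0.10, 95% interval 0.41 to 0.93) had a limma adjusted p = 0.0573 and missed the threshold. Over the 11 alternatives this adjusted p ran from 0.000245 to 0.336, and Map2 passed in 5 of them. The intervals of Dcx (0.58 to 1.13) and Map2 lay below those of Stmn2 (1.35 to 1.75), Stmn4 (1.33 to 2.15), Nefl (1.29 to 1.84) and Nefm (1.44 to 1.99), although a difference in change between 2 genes was not tested.

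Probe sets of the same gene were then set side by side, in a fit over all 45037 probe sets, where 0.515% passed, 0.426% as higher, and 11.6% had an unadjusted p below 0.05. Among the 24 probe sets of the 10 genes, 14 rose, all 24 had a log2 fold change above 0, and in 19 the groups did not overlap, against 5.80% of all probe sets. The brightest Dcx probe set did not pass in it (limma adjusted p = 0.0639). No member passed at the level of probe sets when any 1 pair was left out, where 0 to 12 of all 45037 probe sets passed. In these fits 17 to 19 of the 24 had an unadjusted p under 0.05 in limma's test. Over all probe sets, 3623 were at this level without pair 2 and 5969 without pair 3. Without the replicate block 8 of the 24 passed. All probe sets of Stmn2, Stmn3, Nefl and Ina passed in the fit of all pairs. Those of Dcx, Map2 and Mapt did not give 1 answer. The second Dcx probe set gave 0.79, close to the first, and the remaining pair gave 0.10 and 0.21. The brighter of these was above the unspiked controls and read 122, 97.1 and 104 in Ag1.3 cultures, against 97.7, 102 and 96.9 in RA cultures, and its groups overlapped.

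For Mapt, the second brightest probe set read 110, 85.7 and 101 in Ag1.3 cultures, against 38.5, 41.6 and 37.5 in RA cultures, and rose by 1.05 on the log2 scale with limma adjusted p = 0.0316. The next gave 0.36 from 76.6, 60.8 and 64.6 in Ag1.3 cultures, against 52.9, 50.6 and 43.2 in RA cultures. The dimmest gave 0.14, with all 6 arrays in the range of the unspiked controls. For Map2, the dimmer probe sets gave 0.29, 0.05 and 0.15, with means of 69.5, 41.2 and 39.7 in Ag1.3 cultures, against 54.4, 39.8 and 34.2 in RA cultures. When each gene was represented by the mean of its probe sets, Dcx gave 0.49, Map2 0.29 and Mapt 0.72, of which Mapt passed. Which transcript forms these probe sets read is not given in the sources used here.

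**Figure D2:**
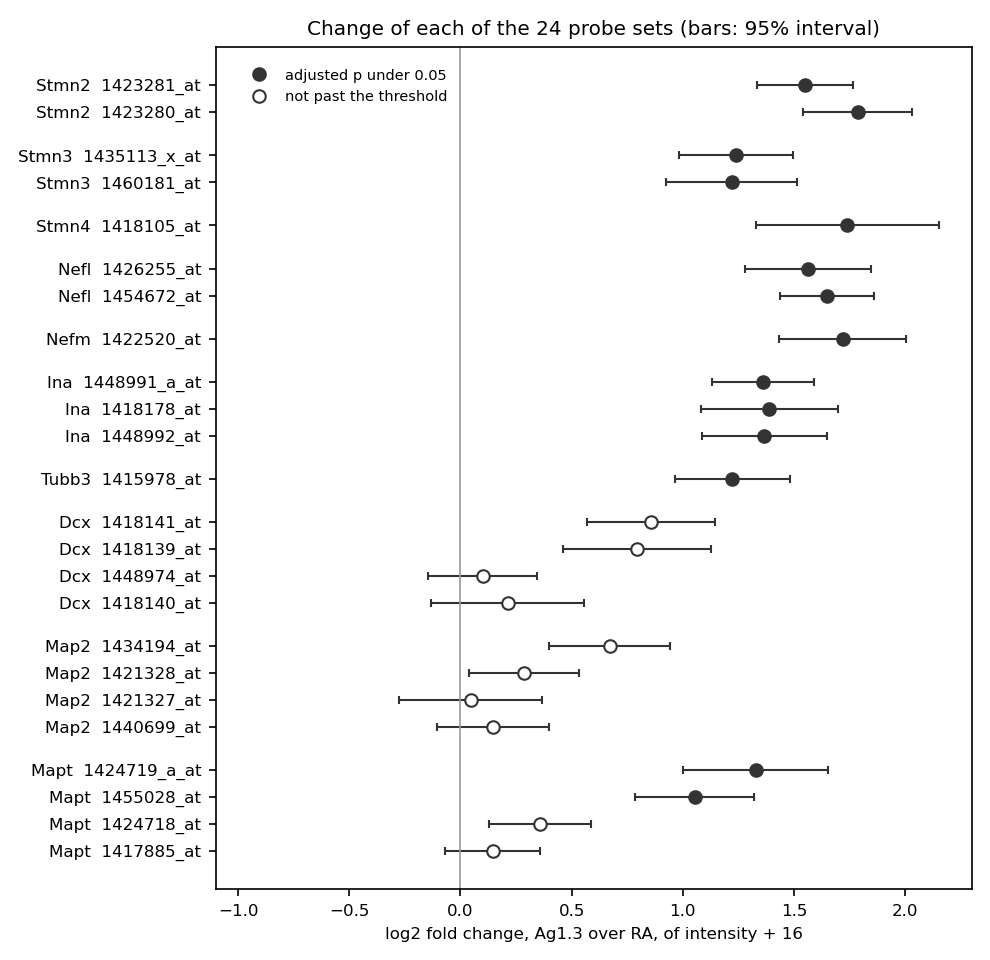
Log2 fold change of Ag1.3 over RA (horizontal axis, on log2 of intensity + 16) for each of the 24 probe sets in the fit over all probe sets, with bars for the 95% interval and filled points for an adjusted p under 0.05. The 14 filled points run from 1.05 for Mapt to 1.79 for Stmn2, and the open points are the 4 probe sets of Dcx, the 4 of Map2 and 2 of the 4 of Mapt.

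Promoters of the members were read from the RefSeq table of GRCm38.p6, which matched 5 of the 10 genes with 6 windows of 300 bases, from 250 before to 50 after the start. Those of Stmn3 (chr2:181314451-181314750, minus strand), Ina (chr19:47014431-47014730, plus strand) and Tubb3 (chr8:123411303-123411602, plus strand) are shown because each of these genes rose with each of its probe sets and they stand for the stathmins, the filaments and the tubulin. They are written 5′ to 3′ on the strand of the gene, with motif matches in capitals.
Stmn3: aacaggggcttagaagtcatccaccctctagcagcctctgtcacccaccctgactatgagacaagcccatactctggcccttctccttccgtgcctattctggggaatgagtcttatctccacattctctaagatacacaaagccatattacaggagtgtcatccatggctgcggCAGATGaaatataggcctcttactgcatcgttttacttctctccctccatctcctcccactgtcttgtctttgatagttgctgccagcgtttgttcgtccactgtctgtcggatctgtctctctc
Ina: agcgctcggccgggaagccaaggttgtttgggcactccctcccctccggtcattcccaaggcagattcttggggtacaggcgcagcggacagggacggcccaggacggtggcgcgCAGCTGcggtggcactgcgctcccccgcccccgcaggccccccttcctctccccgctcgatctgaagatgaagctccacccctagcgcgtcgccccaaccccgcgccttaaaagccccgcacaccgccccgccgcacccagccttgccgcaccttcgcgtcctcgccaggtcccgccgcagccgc
Tubb3: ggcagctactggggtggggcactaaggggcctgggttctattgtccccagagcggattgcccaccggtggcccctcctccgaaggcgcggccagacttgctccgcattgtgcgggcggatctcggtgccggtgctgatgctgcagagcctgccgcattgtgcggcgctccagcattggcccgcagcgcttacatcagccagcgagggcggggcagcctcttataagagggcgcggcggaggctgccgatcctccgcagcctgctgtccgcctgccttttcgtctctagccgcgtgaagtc
The motifs searched, on both strands, were the E-boxes CAGCTG and CAGATG, letters that basic helix-loop-helix factors of neurogenesis can bind, and TGGGTGGTC, the core of the site bound by Gli factors. CAGATG was found in the Stmn3 window, beginning at position -75, and in 17.2% of all 32851 windows. CAGCTG was found in the Ina window, beginning at position -135, and in 16.3% of all windows. TGGGTGGTC was found in 0 of the 6 windows and in 0.253% of all windows. The Map2, Dcx and Tubb3 windows held none of the 3 motifs, and no matches overlapped. GC content was 49.7% in the Stmn3, 71.7% in the Ina, 67.3% in the Tubb3 and 77.7% in the Map2 window and 43.0% and 44.7% in the Dcx windows, with a median of 52.7% over all windows.

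The wider cytoskeleton was read from 66 measured genes in 8 lists, of which 7 rose and 0 fell in limma's test. Over all genes, 1.07% passed as higher and 0.313% as lower. Another 20 had an unadjusted p under 0.05, a level that 14.9% of all genes reached. Of the 20, Nefh, Map7 (-0.34), Map7d2 (-0.24), Camsap3 (-0.24) and Dpysl3 (-0.23) were lower and the rest higher. None of the 66 passed without any 1 of the pairs or without the replicate block, where 18 to 24 and 19 had an unadjusted p under 0.05. Of all 18193 genes, 1579, 1983 and 3031 were at this level without pairs 1, 2 and 3, and 1348 without the block. Of the 3 other stathmin and neuronal filament genes limma's test called 0, and 1 reached an unadjusted p below 0.05. Stmn1, the stathmin of dividing and young cells, read 4120, 4042 and 3808 in Ag1.3 cultures, against 3810, 3787 and 3473 in RA cultures, a log2 fold change of 0.11 (95% interval -0.07 to 0.29) that became -0.08 when arrays were scaled to the spikes. Nefh, the heavy neurofilament chain of mature axons, read 13.8, 21.4 and 36.6 in Ag1.3 cultures, against 32.8, 42.7 and 48.5 in RA cultures. It was lower in all 3 pairs, and its log2 fold change of -0.55 (95% interval -0.82 to -0.29) did not pass (limma adjusted p = 0.0913), passing in 2 of 10 alternatives. Nefh was near background on Ag1.3 replicate 1. Prph, the filament gene of peripheral and motor neurons, gave 0.09 (95% interval -0.14 to 0.31). Of the 3 filament genes of progenitors and glia, limma's test called 0, and 1 reached an unadjusted p below 0.05, Nes at 0.27, while Vim gave 0.05.

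Among 11 other tubulins, limma's test called 0, and 3 reached an unadjusted p below 0.05. Tubb2a read 594, 453 and 572 in Ag1.3 cultures, against 412, 330 and 293 in RA cultures. Its log2 fold change of 0.63 had a limma adjusted p = 0.0856, and the list's median was 0.07. Of 20 other microtubule-associated proteins 2 rose. Map1b, a large protein of growing axons, read 706, 482 and 394 in Ag1.3 cultures, against 399, 291 and 211 in RA cultures (log2 fold change 0.78, SE 0.08, limma adjusted p = 0.0194). Its groups overlapped in level and each pair moved up, by 0.80, 0.70 and 0.85. Map6, which protects microtubules from cold, rose by 0.79 on the log2 scale (limma adjusted p = 0.0206). Dimmer probe sets gave -0.05 and 0.94 for Map1b and 0.16 for Map6.

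Of 8 growth cone proteins 2 rose. Crmp1, a tubulin-binding protein of axon outgrowth, read 926, 784 and 698 in Ag1.3 cultures, against 393, 375 and 235 in RA cultures, a log2 fold change of 1.25 (SE 0.11, limma adjusted p = 0.0136). This was in the range of the members' changes. Dpysl5 of the same family rose by 0.59 (limma adjusted p = 0.0364), and its other probe set gave 0.10. Of 13 motor protein genes 2 rose, both heavy chains of kinesin-1 that are enriched in neurons. Kif5a rose by 0.94 (limma adjusted p = 0.0458) and Kif5c by 0.73 (limma adjusted p = 0.0356), while Kif5b, the chain of all cells, gave 0.09. The other probe sets of Kif5a, both dim, gave -0.24 and 0.37, and those of Kif5c 0.63, 0.11 and 0.44. Of 4 ankyrins and spectrins Ank2 rose, by 1.06 (limma adjusted p = 0.0229), and its next brightest probe set by 0.92. The other 4 probe sets of Ank2, all dim, gave 0.19, 0.00, 0.34 and 0.11 and did not pass. Of 4 severing proteins limma's test called 0, with 0 below an unadjusted p of 0.05, and Spast gave 0.13. The 7 genes that rose kept values above 0 with quantile normalization and with scaling to the spikes, and each passed in 5 or 6 of 11 alternatives.

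**Figure D3:**
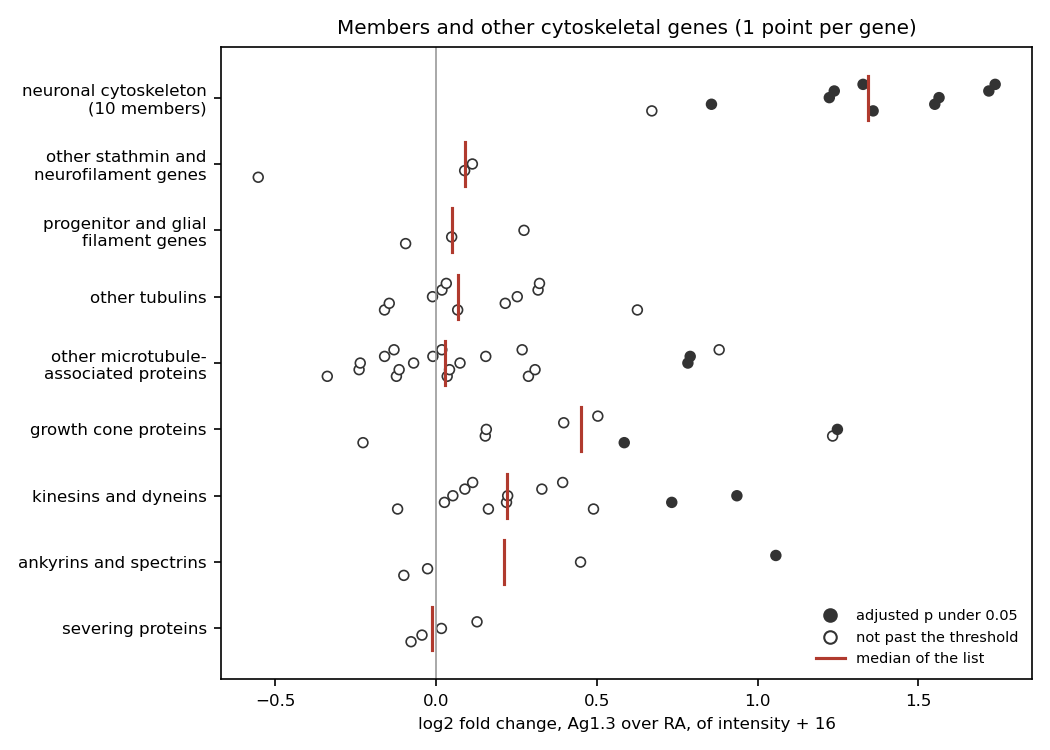
Log2 fold change of Ag1.3 over RA (horizontal axis, on log2 of intensity + 16) for the 10 members and for 66 other cytoskeletal genes in 8 lists, 1 point per gene, filled where the adjusted p was under 0.05, with a red line at each list's median. The members' median is 1.34 and those of the other lists run from -0.01 for severing proteins to 0.45 for growth cone proteins.

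The members moved with other markers of neurons. Of 7 neuron markers 5 rose, Elavl4, an RNA-binding protein of neurons, by 1.70 (limma adjusted p = 0.00287), Elavl3 by 0.91 and Rbfox3 by 0.85. The other probe sets gave 1.92 and 1.82 for Elavl4 and 1.27 and 0.84 for Elavl3. Those of Rbfox3 gave 0.32 and 0.26 and did not pass. The summed intensity of the 7 neuron markers was 1665 to 2700 in Ag1.3 cultures, against 638 to 1044 in RA cultures. The members' own sum was 6365 to 8938 in Ag1.3 cultures, against 2135 to 3497 in RA cultures. Of 5 measured motor neuron markers 4 rose, Isl1 by 3.65 (limma adjusted p = 0.00363), Slc18a3 by 2.22 and Lhx3 by 2.86 among them, with a sum of 1218 to 2027 in Ag1.3 cultures, against 154 to 191 in RA cultures. The dimmer probe set of Isl1 gave 3.58, and that of Lhx3 gave 0.69 and did not pass. RA values of Slc18a3 and Lhx3 lay in the range of the unspiked controls, so the size of their changes depends on the pseudocount. Over the 11 alternatives their log2 fold changes ran from 1.26 to 3.12 and from 1.78 to 3.62. The labels call the cells neural progenitors, and progenitor markers were present in both groups. For these markers the groups overlapped, with sums of 6441 to 7371 in Ag1.3 and 5500 to 7547 in RA cultures. Limma's test called 0 of 6, and 3 of them reached an unadjusted p below 0.05. Pax6, lowest in p, was lower at -0.48 (limma adjusted p = 0.0535), while Hes5 at 0.46 and Fabp7 at 0.39 were higher. The other probe sets of Pax6 gave -0.52, 0.05, -0.49 and -0.10. For markers of cycling cells the sums were 6680 to 7244 in Ag1.3 and 6985 to 7455 in RA cultures, and limma's test called 0 of 5, with 0 below an unadjusted p of 0.05. The cycling sum was lower in Ag1.3 than in RA in all 3 pairs, as were Top2a, Cdk1, Aurka and Plk1, with log2 fold changes of -0.05, -0.12, -0.06 and -0.11, while Mki67 gave 0.08. Pluripotency markers had sums of 1123 to 3034 in Ag1.3 and 2022 to 4163 in RA cultures. All 5 had log2 fold changes below 0, and 1 of them, Pou5f1, passed at -0.68 (limma adjusted p = 0.0423). Each of the 5 had an unadjusted p below 0.05 in limma's test, a level that 7.68% of all genes reached as lower. The part of these markers in the members' changes was not tested.

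**Figure D4:**
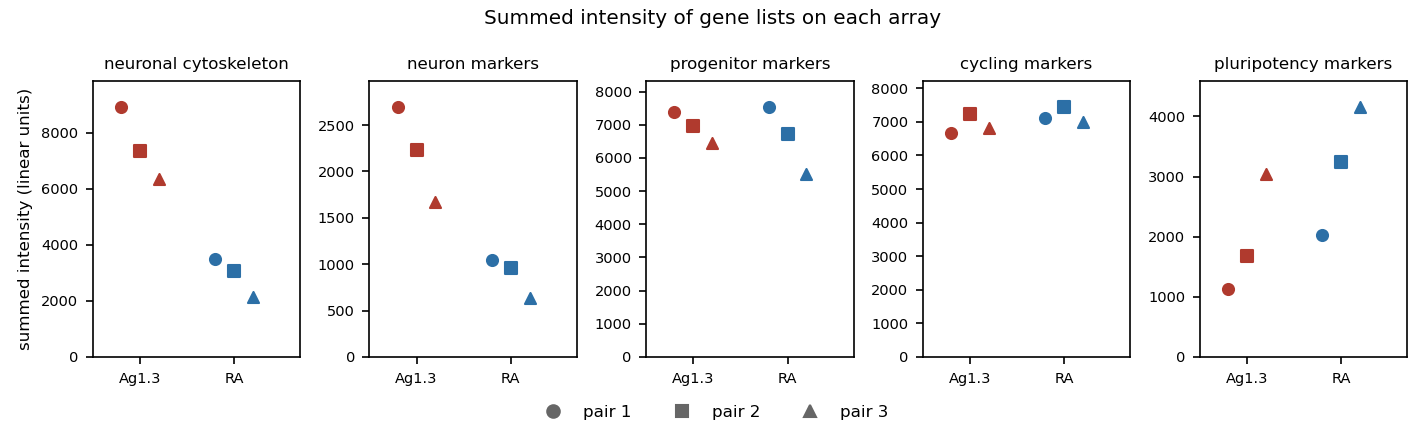
Summed deposited intensity (linear units, vertical axis) of the 10 members and of 4 marker lists on each array, with Ag1.3 arrays at the left and RA arrays at the right of each panel and a symbol for each pair. The members and the neuron markers separate the groups, the progenitor and cycling markers overlap between them, and the cycling and pluripotency sums of Ag1.3 are lower than those of RA in all 3 pairs.

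Markers of other cell types showed few changes. Those of neural crest summed to 375 to 476 in Ag1.3 and 343 to 478 in RA cultures. Limma called 0 of 4, and 2 had an unadjusted p below 0.05, Ngfr, lowest in p, at 0.47 and Erbb3 at -0.58. The other Ngfr probe sets, both dim, gave 0.06 and 0.25. Astrocyte markers summed to 310 to 402 in Ag1.3 and 244 to 305 in RA cultures (0 of 5 called). Slc1a2, the brightest of the 5, was below an unadjusted p of 0.05 at 0.53. Gfap, Aldh1l1 and S100b were below 0, and the list's median was -0.095. The other Slc1a2 probe sets, all dim, gave -0.01, -0.06, 0.70 and 0.37 and did not pass. Endoderm markers summed to 232 to 408 in Ag1.3 and 253 to 503 in RA cultures. Of these 6, Sox17 fell, by a log2 fold change of -1.21 (limma adjusted p = 0.0159), and its other probe set, at -0.47, did not pass. Mesoderm markers summed to 119 to 193 in Ag1.3 and 150 to 196 in RA cultures (0 of 5 called, with Tbx6 at -0.25 below an unadjusted p of 0.05). Averaged over all 6 arrays, S100b, Afp, Foxc1 and Myod1 were no brighter than the brightest unspiked control.

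Cultures of the same treatment also differed in a shared way. Ag1.3 replicate 1 was the highest Ag1.3 array for all 10 genes and replicate 3 the lowest for 8, the exceptions being Stmn4 and Mapt. RA replicate 3 was the lowest RA array for 8 genes, again other than these 2 genes. The neuron marker sum was likewise lowest in replicate 3 of either group, and the pluripotency sum was highest there. Genes with the pattern most like the members were sought by correlation over the 6 arrays with the mean of the 10 scaled members, among 11431 other genes above the median intensity. The 5 closest were Gpm6b, Nrcam, Bin3, Itsn1 and Map6, each with Pearson's r of 0.995 to 0.996, where the points share their arrays and treatment groups. Gpm6b, a membrane proteolipid of neurons, rose by 1.65 on the log2 scale and Nrcam, a neuronal adhesion protein, by 1.10 (limma adjusted p = 0.00287 and 0.0112). Likeness ignores size, and Bin3 had the same order of arrays with a log2 fold change of only 0.06 and Itsn1 0.45, neither past the threshold.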

How the data were processed

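Total RNA was labelled as biotinylated cRNA with a 3' IVT kit, per the labels' protocols, and hybridized to 1 Affymetrix array per culture. The deposited values are probe set intensities on a linear scale. How the authors summarised probes and scaled arrays is not given in the sources used here, and intensities were used as deposited. Of the probe sets that were not controls, the platform annotation gave 34945 a single symbol and 932 several, and did not list 9160, while 64 controls were left out.

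Values were transformed to log2(intensity + 16), so folds of dim probe sets are understated. Genes, each represented by the probe set with the highest mean log2 value, and separately all probe sets, went through limma's lmFit and eBayes (version 3.58.1, under R 4.3.3, two-sided), with Benjamini-Hochberg adjustment and a threshold of 0.05. SE and 95% intervals are limma's. The series' design text describes paired parallel cultures, and the pairs were read from the replicate numbers in the labels, so the replicate number was a block. Deviations from group means correlated at 0.54, 0.19 and 0.56 across genes within pairs 1 to 3, against -0.51 to 0.07 between other arrays. Such deviations cancel within each group, so positive values within pairs bring lower ones elsewhere, and the contrast is no separate check of the pairs. The p-values measure the spread of 3 pairs of cultures of 1 line. Precision is limited by the number of arrays. No arrays were identical. On simulated data with 18193 genes, the gene test found 91 of 100 changes of 1 and 100 of 100 changes of 2 on the log2 scale, with 11 false calls. The simulated noise was normal and drawn for each gene on its own, and each change had the same size in every pair. Real cultures differed in a shared way, so these shares do not give the power in the real data.

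All members and probe sets are named, and from each other list at most 3 genes that passed, by adjusted p, or, if none did, the gene lowest in p. The 5 genes most correlated with the members are named too. Genes shown for contrast (Stmn1, Prph, Vim, Kif5b, Mki67, Top2a, Aurka, Plk1, Hes5, Fabp7, Erbb3, Gfap, Aldh1l1, Map7, Map7d2, Camsap3, Dpysl3), Gap43, Mapre2 and those with means in the control range were added after their values were seen. The members and lists were chosen with earlier results of these data known.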

Additional observations from a re-analysis of the deposited data

How the results depend on the processing

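With 3 pairs, calls rest on few arrays. Leaving out 1 pair left 3 to 5 of the 10 members past the threshold, 0 of the 24 probe sets, 35 to 62 genes and 0 to 12 probe sets in all, and 0 of the 66 other cytoskeletal genes, in limma's test, and the members' median log2 fold change was 1.28 to 1.43. Counts of 0 came with 17 to 19 member probe sets and 18 to 24 cytoskeletal genes at an unadjusted p under 0.05, and with 3623 and 5969 of all probe sets without pair 2 and without pair 3. Of all genes, 1579, 1983 and 3031 were at this level without pairs 1, 2 and 3. The block was needed for some calls: with no replicate block 86 genes, 108 probe sets, 8 member probe sets and 0 cytoskeletal genes passed, and Stmn3, Tubb3 and Dcx lost their call. With a pseudocount of 1, limma called 0 genes, 0 probe sets, 0 members, 0 member probe sets and 0 cytoskeletal genes, with 2412, 4601, 10, 19 and 24 at an unadjusted p under 0.05, and the members' median was 1.46. With a pseudocount of 64 there were 833 genes (473 higher and 360 lower), 839 probe sets and 17 cytoskeletal genes, and the median was 1.11. Among probe sets above the median, 950 genes (497 higher, 453 lower), 1155 probe sets and 17 cytoskeletal genes passed, with fewer features tested. A moderation that follows intensity gave 1210 genes (640 higher, 570 lower), 1687 probe sets and 20 cytoskeletal genes. Scaling to the spikes moved the median of all genes to -0.16 and gave 1208 genes (238 higher, 970 lower), 752 probe sets and 12 cytoskeletal genes (7 higher, 5 lower), with a members' median of 1.17. The mean of probe sets left 2 cytoskeletal genes. Where not stated, the cause was not tested. Map2 passed with quantile normalization, spike scaling, a pseudocount of 64, the filter and the trended moderation. Of the other 14 probe sets of the members, which do not stand for a gene, the third brightest of Map2 and of Dcx had values below 0 under some settings, at the lowest -0.12 and -0.07, and did not pass.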

Other observations

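Gap43 and Mapre2 of the wider lists had changes within the members' range of 0.67 to 1.74 without passing the test. Both were below the members' median of 1.34, and they are given here because of their values. Gap43, a growth cone protein of extending axons, read 619, 409 and 360 in Ag1.3 cultures, against 392, 190 and 76.9 in RA cultures. The log2 differences of its 3 pairs were 0.64, 1.05 and 2.02, so the change was positive in each pair and its size was not shared (log2 fold change 1.23, 95% interval 0.59 to 1.88, limma adjusted p = 0.107). Mapre2, which binds the growing ends of microtubules, read 934, 864 and 958 in Ag1.3 cultures, against 582, 589 and 345 in RA cultures. Its pairs differed by 0.67, 0.54 and 1.43 (log2 fold change 0.88, 95% interval 0.42 to 1.34, limma adjusted p = 0.107). In both genes pair 3 had the largest difference and RA replicate 3 the lowest value.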
